A study of Mus musculus with 43 samples.

Results

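Astrocytes from mice without Rag2 were compared with astrocytes from control littermates, in 12 of the 43 libraries of the series. The 12 libraries were taken by their labels, as 6 Rag2-/- astrocyte libraries and 6 control astrocyte libraries that form littermate pairs 1 to 6. All mice were 3 months old and came from heterozygous parents of the Rag2 knockout line B6.Cg-Rag2tm1.1Cgn/J, crossed to C57BL/6J and kept in a clean facility for immunodeficient mice. Rag2-/- mice carry the deletion in every cell, including the astrocytes. The controls of pairs 1, 2, 3 and 5 were Rag2+/-, and those of pairs 4 and 6 were Rag2+/+, so 4 of the 6 control mice carried 1 copy of the deletion. Both mice were male in pairs 1, 3 and 4 and female in pairs 2 and 5, and pair 6 set a female Rag2-/- mouse against a male control. The comparison asks how astrocyte expression differs in a mouse that has no mature lymphocytes, and, since few genes passed the test, how small a change these libraries could have shown.

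RAG2 and RAG1 together form the enzyme that cuts DNA to assemble antigen receptor genes, and without it no mature T or B cells arise. Astrocytes take up glutamate, potassium and water around synapses and vessels, supply lipids and lactate, and carry receptors for interferons and other cytokines that lymphocytes release. Gfap, interferon-induced genes and antigen presentation genes are the usual readouts of an astrocyte that has met inflammation.

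Cells were purified from cortical grey matter by immunopanning, in which a cell suspension passes over plates coated with antibodies. Astrocytes were bound last, by anti-HepaCAM, after plates for the other glia. The control libraries held 6522754 to 10196820 counts on genes and the Rag2-/- libraries 8868828 to 11609986. Mitochondrial transcripts took 28.1% to 35.4% of the counts in controls and 22.5% to 45.1% in Rag2-/- libraries. The Rag2-/- library of pair 1 stood apart, at -105 on the first principal component against -14.2 to 18.8 for the other 11. Several values that this library moved are also given without it. The control of pair 1 stood apart on the second component, at 75.4 against -30.3 to 15.6 for the other 11. The 9 astrocyte markers (Aldh1l1, Aldoc, Slc1a2, Slc1a3, Aqp4, Gja1, Sox9, Gfap and Hepacam) were present in every library, with a summed level of 18430 to 21851 CPM in controls and 18595 to 22455 CPM in Rag2-/- mice. CPM here are counts scaled to library size and composition (edgeR's TMM), with no division by gene length, so levels are compared between libraries and not between genes.

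The comparison by genotype tested 14725 genes with edgeR's quasi-likelihood test, with sex as a covariate and Benjamini-Hochberg adjustment. It called 1 gene lower in Rag2-/- astrocytes (0.00679% of the genes tested) and 0 higher. At an unadjusted p under 0.05, 250 genes were higher (1.7%) and 173 were lower (1.17%). The called gene was Iftap (ENSMUSG00000027165), which encodes the intraflagellar transport associated protein and shares its locus with Rag2.

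In GRCm39, Iftap is transcribed from the minus strand of chromosome 2 between 101391125 and 101484020. Rag2 (ENSMUSG00000032864) lies inside it on the plus strand, between 101455063 and 101462874. Of the 37 Iftap transcripts that GENCODE annotates, 25 start inside the span of Rag2. Outside that span, 5 start on the upstream side of Iftap and 7 on its downstream side. The starts crowd together, with 23 of them between 101459215 and 101459415. This places them just before a Rag2 exon that begins at 101459667 on the other strand. The 250 bases before the outermost of these starts, chr2:101459416-101459665 read on the minus strand, are shown because most annotated transcripts of the only called gene start beside them, within the gene that was knocked out.

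Iftap upstream sequence: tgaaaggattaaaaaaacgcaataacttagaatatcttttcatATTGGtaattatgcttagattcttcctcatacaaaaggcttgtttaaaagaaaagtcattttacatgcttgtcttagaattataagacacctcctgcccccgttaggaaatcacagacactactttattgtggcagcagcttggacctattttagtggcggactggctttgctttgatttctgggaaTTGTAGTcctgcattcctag

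Capitals mark the only matches on either strand to the 4 motifs searched. These were the CCAAT box, the GC box written GGGCGG, the TATA box written TATAAA, and ACTACAA, the start of an element bound by the transcription factor ZNF143, which was added after the sequence had been read. Both matches are on the strand opposite to the one printed, so that CCAAT reads as ATTGG, and the added motif as TTGTAGT. The CCAAT box occurred in 36.1% of the 250-base windows before 21770 protein-coding genes and the added motif in 3.18%. The GC box and the TATA box, which 29.9% and 12.5% of the windows held, did not occur here. These are matches of letters, and no binding was measured. The window overlaps no annotated exon.

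Iftap stood at 6.71, 7.95, 8.78, 11.5, 9.30 and 14 CPM in the controls of pairs 1 to 6, and all 6 Rag2-/- libraries held 0 counts. The groups did not overlap, and Rag2-/- astrocytes were at least 31.8-fold lower when each count of 0 is set to 3 counts. The fitted log2 fold change was -9.47 with a standard error (SE) of 0.63 and an adjusted p of 1.28e-05 in edgeR's quasi-likelihood test, and the adjusted p lay between 7.28e-36 and 0.00582 over 25 other settings. Among the controls the level was lower with 1 intact Rag2 copy than with 2. The 4 Rag2+/- libraries averaged 8.18 ± 1.13 CPM (SD) and the 2 Rag2+/+ libraries 12.8 CPM, a ratio of 0.641 with no overlap. An exact permutation test gave a two-sided p of 0.0667, the smallest that 15 regroupings allow. The order was the same in the other glia of these litters, with Rag2+/- libraries at 6.71 to 10.4 CPM and Rag2+/+ at 12.9 to 17.9 in OPCs, and 2.63 to 4.24 against 8.80 to 9.52 in microglia. These are the same mice, not further animals. Rag2 itself had 0 counts in all 12 astrocyte libraries, so its counts could not check the genotype labels.

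**Figure D1:**
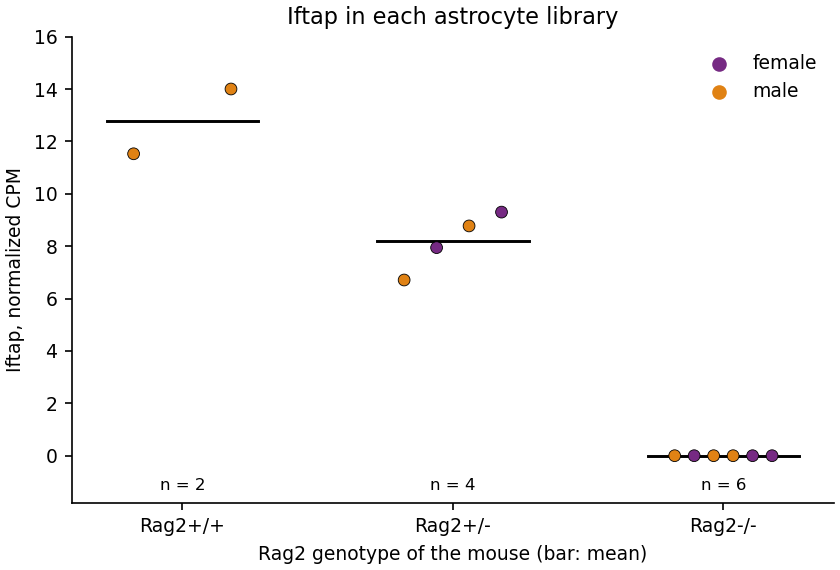
Iftap level (vertical axis, normalized CPM) in each of the 12 astrocyte libraries by the Rag2 genotype of the mouse (horizontal axis), coloured by sex, with a bar at the mean. The 2 Rag2+/+ libraries sit at 11.5 and 14, the 4 Rag2+/- libraries at 6.71 to 9.30 and all 6 Rag2-/- libraries at 0.

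How small a change could be seen was read from the 95% interval of each gene's log2 fold change, in the fit on sex and genotype without a pair term. The median distance from the estimate to either end of the interval, here called the margin, was 0.52 over all genes tested, which is 1.43-fold. The whole interval lay inside 2-fold in either direction for 10199 genes (69.3%), inside 1.5-fold for 5789 (39.3%) and inside a rise of 25% or the matching fall (the 25% bound) for 1156 (7.85%). Testing each gene against both bounds, with adjustment over all genes, placed 10746 genes (73%) within 2-fold and 5212 (35.4%) within 1.5-fold at an adjusted p under 0.05. With littermate pair in place of sex, 70.1% of the intervals lay inside 2-fold and 42.4% inside 1.5-fold. With both pair and sex the shares were 66.4% and 38.6%. An interval is for 1 gene at a time, so some of 14725 intervals miss the true value.

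The margin depended on the level. For the 943 genes over 100 CPM the median margin was 0.24 on the log2 scale (1.18-fold), and 96.7% of the intervals lay inside 1.5-fold. For 6889 genes at 10 to 100 CPM it was 0.37, with 97.8% inside 2-fold and 68.1% inside 1.5-fold. For 6833 genes at 1 to 10 CPM it was 0.87, with 36.8% inside 2-fold and 2.72% inside 1.5-fold. To be called as a second gene beside Iftap, a gene with the median SE of its range needed a log2 fold change of 0.70 (1.62-fold) over 100 CPM, 1.11 (2.15-fold) at 10 to 100 CPM and 2.56 (5.88-fold) at 1 to 10 CPM. Leaving out the Rag2-/- library of pair 1 moved the share inside 2-fold to 68.5% and the share inside 1.5-fold to 39.6%. Without the control of pair 1 they were 66.8% and 37.7%.

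**Figure D2:**
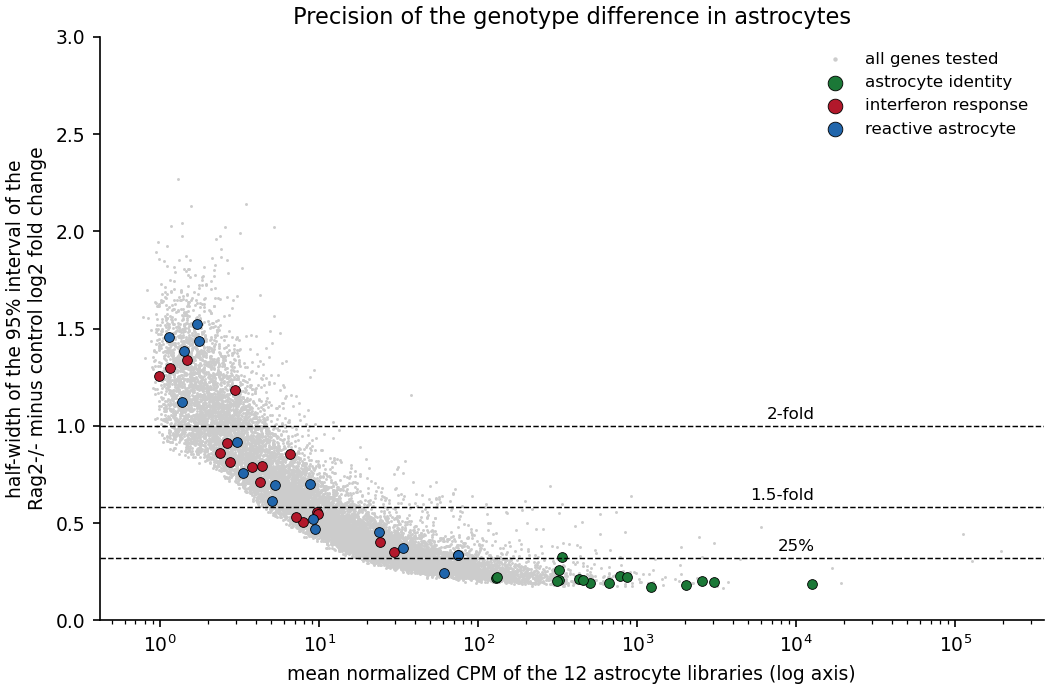
Margin of the 95% interval of the Rag2-/- minus control log2 fold change (vertical axis) against the mean CPM of the 12 astrocyte libraries (horizontal log axis), with all 14725 genes in grey and 3 gene lists in colour. The median margin falls from 1.39 under 1 CPM, above the 2-fold line, to 0.24 over 100 CPM, below the 25% line. Most astrocyte identity genes lie over 100 CPM, with Gfap below that level, and most interferon response genes lie at under 10 CPM.

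Sex served as a measure of what the same fit could call. It called 6 genes (0.0407%), while 991 (6.73%) had an unadjusted p under 0.05. The 6 were the Y-linked Ddx3y, Kdm5d, Uty and Eif2s3y, the Y-linked pseudogene Gm18665, and Xist, the RNA that silences an X chromosome in females. Genes that escape X inactivation differ modestly between the sexes by a known rule, and they give a scale for small changes. Kdm6a, a histone demethylase, stood at 72.8 ± 11.4 CPM in 5 female and 47.6 ± 2.62 CPM in 7 male libraries, with no overlap between the sexes. Its female minus male log2 fold change was 0.60 (95% interval 0.35 to 0.85), and its adjusted p was 0.151 in edgeR's quasi-likelihood test and 0.00399 in DESeq2. Ddx3x, an RNA helicase, differed by 0.40 (0.16 to 0.64) with an adjusted p of 0.710 in edgeR. Pbdc1, at 8.60 ± 2.04 CPM in female and 5.34 ± 1.70 CPM in male libraries, differed by 0.81 (0.24 to 1.38) with an adjusted p of 0.715 in edgeR. The intervals of these 3 genes did not contain 0, and edgeR called none of them. The intervals of Kdm5c (0.29, from -0.03 to 0.60) and Eif2s3x (0.01, from -0.66 to 0.67) did contain 0.

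Against this scale, 17 lists of astrocyte genes were read, with 281 distinct members of which 247 passed the filter on low counts. Genotype called 0 of them, against 1 of all 14725. At an unadjusted p under 0.05 there were 3, or 1.21% of those tested against 2.87% of all genes. These were Apoc1 and Tap2, both higher, and Ifngr1, lower. The interval lay inside 2-fold for 213 list members (86.2%), inside 1.5-fold for 163 (66.0%) and inside the 25% bound for 73 (29.6%). The groups overlapped for every member, while 19 of all genes (0.129%) did not overlap, with 11 higher (0.0747%) and 8 lower (0.0543%) in Rag2-/- mice.

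Genes that define astrocytes had narrow intervals. The intervals of all 18 identity genes lay inside 1.5-fold and 15 inside the 25% bound, with a median log2 fold change of -0.0076 and a median margin of 0.21. The adjusted test against both bounds placed 17 of the 18 within 1.5-fold. Slc1a2, the main glutamate transporter of the forebrain, stood at 11946, 12060, 11500, 14361, 12461 and 11428 CPM in controls and 15246, 10517, 13026, 13194, 12199 and 12206 CPM in Rag2-/- mice, in the order of the pairs. The groups overlapped, and the difference was 0.07 (95% interval -0.12 to 0.25). Aldh1l1, a folate enzyme used as a pan-astrocyte marker, was at 129 ± 14.5 CPM in controls and 129 ± 16.4 CPM in Rag2-/- mice (SD, n = 6 each), a difference of -0.04 (-0.26 to 0.17). Sox9, a transcription factor of the astrocyte lineage, differed by -0.14 (-0.46 to 0.19).

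Gfap, the intermediate filament that rises in reactive astrocytes, was the identity gene with the widest interval and the lowest estimate. It stood at 94.2, 93.4, 73.5, 80.7, 85.7 and 60.1 CPM in controls and 87.9, 88.3, 60.1, 73.6, 55.7 and 48.5 CPM in Rag2-/- mice. The Rag2-/- value was the lower of the 2 in every pair, but the groups overlapped. The log2 fold change was -0.24 (95% interval -0.57 to 0.10), so a rise of 25% or more lay outside it. A fall of 1.5-fold, which is 0.585 on the log2 scale, lay only just outside. Omitting 1 library moved the estimate to between -0.34 and -0.16, depending on the library. The intervals of those fits are not given here, so a fall of 1.5-fold is not firmly excluded.

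Glutamate and GABA uptake had the smallest median margin of the 17 lists, at 0.19. All 10 of its genes lay inside the 25% bound, from Slc7a11, the cystine-glutamate exchanger, at -0.04 (-0.32 to 0.23), to Glul, glutamine synthetase, at 0.07 (-0.13 to 0.26). Glud1, glutamate dehydrogenase, had the narrowest interval of the list, at 0.02 (-0.16 to 0.19). All 13 genes of water, potassium and bicarbonate handling lay inside 1.5-fold and 6 inside the 25% bound, with a median margin of 0.25. Among them were Mlc1, a membrane protein of astrocyte endfeet (-0.14, from -0.35 to 0.07) and Kcnk1, a potassium channel (0.14, from -0.11 to 0.39). Of 4 gap junction genes 3 were tested, and Gja1 and Gjb6, the connexins 43 and 30, lay inside the 25% bound, while Gjb2 (connexin 26), at 9.85 CPM in controls, lay inside 2-fold only.

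In the metabolic lists the well-counted genes were also close to their controls. All 21 cholesterol synthesis genes lay inside 2-fold and 19 inside 1.5-fold. The 2 that did not were Fdps (0.02, from -0.65 to 0.70) and Ebp (0.39, from -0.16 to 0.93), enzymes of the pathway counted at 9.01 and 6.28 CPM in controls. All 19 genes of glycolysis, glycogen and lactate lay inside 2-fold and 16 inside 1.5-fold, with Slc2a1, the glucose transporter, at 0.13 (-0.07 to 0.33), Ldhb, a lactate dehydrogenase subunit, at -0.17 (-0.37 to 0.03) and Pgam1, phosphoglycerate mutase, the widest at 0.08 (-0.56 to 0.71). For lipoproteins and lipid efflux 7 of 9 lay inside 2-fold and 4 inside 1.5-fold. Apoe and Clu, the main apolipoproteins that astrocytes secrete, differed by -0.10 (-0.30 to 0.11) and -0.02 (-0.21 to 0.17).

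Apoc1 (ENSMUSG00000040564, chromosome 7 of GRCm39, 19422540 to 19427328) encodes a small apolipoprotein and had the largest estimate of all list members. It was counted at 0.120, 0.993, 0.102, 0.245, 1.51 and 1.97 CPM in controls and 9.74, 1.69, 1.17, 1.63, 2.64 and 4.66 CPM in Rag2-/- mice. Each Rag2-/- library was above its own littermate, the highest value was in the library of pair 1 that stood apart, and the groups overlapped. The controls of pairs 1 to 4 held 1, 7, 1 and 2 counts, and Apoc1 passed the filter on low counts through its Rag2-/- libraries. The log2 fold change was 2.08 (SE 0.69, 95% interval 0.62 to 3.54), and the adjusted p was 1.00 in edgeR's quasi-likelihood test and between 0.110 and 1.00 in 25 other settings. Without the Rag2-/- library of pair 1 the log2 fold change was 1.18. Apoc1 is also made by macrophages. The summed level of 6 border macrophage markers was 1.42 to 25.2 CPM in controls and 1.76 to 24.5 CPM in Rag2-/- libraries, and of 8 microglia markers 79.0 to 307 CPM and 107 to 281 CPM. Their part in the result was not tested.

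The interferon response and reactive astrocyte lists had the widest median margins of the 17. Of 28 interferon response genes 17 passed the filter, with a median margin of 0.79, and the interval lay inside 2-fold for 10, inside 1.5-fold for 3 and inside the 25% bound for 0. Their median log2 fold change was -0.16, against 0.0014 over all genes. Stat2, a signal transducer of type I interferon, was the narrowest at -0.13 (-0.48 to 0.22), from 30.5 ± 4.06 CPM in controls and 28.5 ± 6.62 CPM in Rag2-/- mice (SD, n = 6 each). Rtp4, an interferon-induced chaperone, was the lowest by p, at 1.20, 1.84, 2.35, 5.03, 4.54 and 4.76 CPM in controls and 2.49, 1.79, 3.06, 1.74, 0.967 and 1.91 CPM in Rag2-/- mice. Its groups overlapped, and its log2 fold change was -0.69 (-1.60 to 0.22). For Oasl2, an oligoadenylate synthetase-like gene and the widest of the list, the interval ran from -1.08 to 1.60, so a change of 2-fold in either direction was inside it. A further 11 members, among them Isg15, Ifit1, Mx1 and Zbp1 (chosen after their values were seen), had too few counts to test, and Isg15 had 0 to 10 counts per library.

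**Figure D3:**
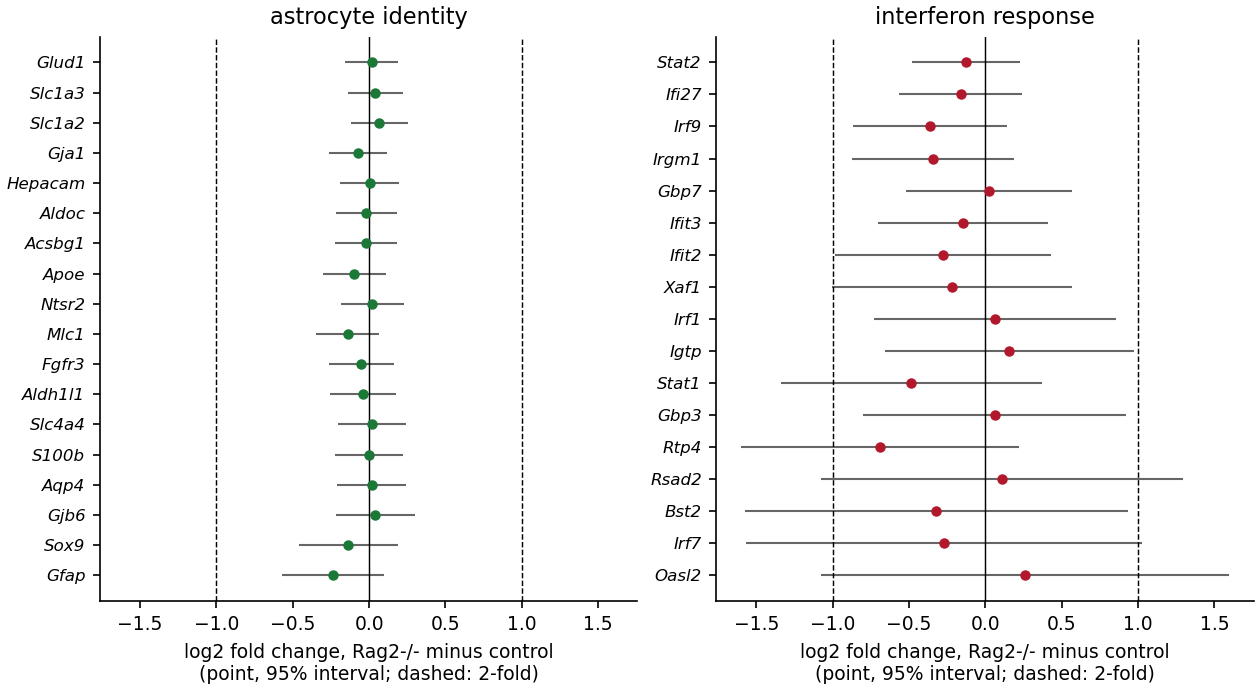
Rag2-/- minus control log2 fold change with its 95% interval (horizontal axis) for the 18 astrocyte identity genes and the 17 interferon response genes tested, 1 gene per line, with dashed lines at 2-fold. Every identity interval lies well inside the dashed lines, and 7 of the 17 interferon intervals cross one.

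Of 20 receptors for lymphocyte cytokines 17 were tested, 12 lay inside 2-fold, 6 inside 1.5-fold and 1 inside the 25% bound. That 1 was Il6st, the gp130 subunit shared by IL-6 family receptors, at -0.04 (-0.30 to 0.23). Ifngr1 (ENSMUSG00000020009, chromosome 10, 19467697 to 19485977), the ligand-binding chain of the interferon-gamma receptor, was counted at 24.1, 18.9, 17.6, 31.4, 25.2 and 24.6 CPM in controls and 21.3, 19.3, 15.2, 16.7, 17 and 20.4 CPM in Rag2-/- mice. It was lower in 5 of 6 pairs and the groups overlapped. The log2 fold change was -0.36 (95% interval -0.72 to -0.0025), and edgeR's quasi-likelihood test gave an adjusted p of 1.00. Ifnar2, of the type I interferon receptor, was at 0.25 (-0.22 to 0.72). Tnfrsf1b, a TNF receptor, ranged from 0 to 8.16 CPM in Rag2-/- libraries and had an interval from -1.07 to 2.89 around 0.91, which moved to 0.19 without the Rag2-/- library of pair 1.

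For MHC class I presentation 11 of 14 members were tested, 8 lay inside 2-fold, 4 inside 1.5-fold and 1 inside the 25% bound. Pdia3, a chaperone of the peptide-loading complex, stood at 121 CPM in both groups, with an interval of -0.25 to 0.25. Tap2 (ENSMUSG00000024339, chromosome 17, 34422501 to 34435829), a subunit of the peptide transporter, was at 0.599, 1.70, 1.63, 0.613, 0.814 and 2.87 CPM in controls and 7.59, 2.96, 2.43, 1.96, 3.43 and 2.22 CPM in Rag2-/- mice. It was higher in 5 of 6 pairs, the groups overlapped, and the pair 1 library again held the highest value. The log2 fold change was 1.35 (SE 0.49, 95% interval 0.31 to 2.39), and edgeR's quasi-likelihood test gave an adjusted p of 1.00. Without the Rag2-/- library of pair 1 it was 0.87. Psmb8, an immunoproteasome subunit, was at -0.75 (-2.14 to 0.64).

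Of 31 reactive astrocyte genes 16 were tested, 10 lay inside 2-fold, 3 inside 1.5-fold and 1 inside the 25% bound, with a median log2 fold change of -0.05. The narrowest was Stat3, a transcription factor of the reactive response, at -0.04 (-0.28 to 0.21). Rarely counted members had wide intervals. Srgn, a secretory granule proteoglycan, was at -1.25 (-2.70 to 0.21) from 1.62 CPM in controls. S1pr3, a receptor for sphingosine 1-phosphate, was at 1.246 (-0.28 to 2.77), but its value in the Rag2-/- library of pair 1 was 10.3 CPM against 0.217 to 1.49 in the other 5, and without that library the log2 fold change was -0.42. Lcn2 and C3, genes used to mark reactive states and chosen after their values were seen, had at most 4 and 14 counts in any library.

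Of 13 secreted synapse regulators 12 were tested, 10 lay inside 2-fold, 8 inside 1.5-fold and 2 inside the 25% bound. Sparcl1, which promotes excitatory synapses, was at -0.11 (-0.27 to 0.06), and Thbs4, a thrombospondin, at -0.37 (-0.89 to 0.15). Thbs1 was at 1.09 (-0.01 to 2.20), with 17.4 CPM in the Rag2-/- library of pair 1 and 1.06 to 3.60 in the other 5, and without that library it was at 0.24. The widest was Tgfb1, at -0.40 (-1.56 to 0.76). All 11 genes of phagocytosis by astrocytes lay inside 2-fold and 10 inside 1.5-fold, with Itgb5, an integrin, at 0.14 (-0.16 to 0.44), Gas6, a ligand of the Mertk and Axl receptors, at -0.08 (-0.39 to 0.22), Itgav at 0.05 (-0.14 to 0.25) and the adaptor Gulp1 at 0.03 (-0.46 to 0.53).

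The regulators of astrocyte state were mostly well measured. Of 26 Notch, BMP and FGF genes 25 lay inside 2-fold, 20 inside 1.5-fold and 7 inside the 25% bound. Notch1 was at 0.14 (-0.09 to 0.37), its target Hey1 at -0.25 (-0.50 to 0.0043), the ligand Dll1 at -0.49 (-1.68 to 0.70) and the transcription factor Nfix at 0.04 (-0.17 to 0.25). Of 20 genes for transmitter receptors and calcium signalling 19 were tested, 17 lay inside 2-fold and 14 inside 1.5-fold. These included Itpr1, a calcium release channel (0.19, from -0.10 to 0.48), Gnaq, a G protein subunit (-0.12, from -0.35 to 0.10), the GABA-B receptor gene Gabbr1 (0.08, from -0.11 to 0.27) and the thrombin receptor gene F2r (0.44, from -0.30 to 1.18). All 16 circadian clock genes lay inside 2-fold and 13 inside 1.5-fold, with the repressor Cry1 at -0.38 (-0.81 to 0.05), Npas2 at 0.15 (-0.29 to 0.60), Hlf at -0.09 (-0.28 to 0.10) and Ciart at 0.09 (-0.59 to 0.76).

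Genes that respond to the isolation of cells bear on how alike the preparations were. Of 22, 16 lay inside 2-fold and 13 inside 1.5-fold. Fos, an immediate early gene, was at 847, 602, 620, 826, 834 and 796 CPM in controls and 672, 529, 741, 665, 670 and 590 CPM in Rag2-/- mice, a difference of -0.20 (-0.43 to 0.02). Dusp1, a stress-induced phosphatase, was at 0.01 (-0.20 to 0.21). Arc, an activity-regulated gene, was at 0.60 (-0.04 to 1.24), with 79.0 CPM in the Rag2-/- library of pair 1 and 9.23 to 27.7 in the other 5, and without that library it was at 0.16. Egr2, the widest, was at -0.62 (-1.56 to 0.33).

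Averaging a list within each library gave a further view, since noise of single genes is reduced. For each list the mean log2 CPM of its tested members was taken in every library, and the Rag2-/- value minus the value of the control littermate was taken in each of the 6 pairs. The range of 6 such differences covers their median with a confidence of 96.9%, if the pairs are independent. For astrocyte identity the differences ran from -0.06 to 0.04, which is -4.15% to 2.67%, with a mean of -0.010 ± 0.040 (SD, n = 6 pairs). For water, potassium and bicarbonate handling they ran from -5.76% to 4.42%, for phagocytosis from -5.33% to 8.88% and for glutamate and GABA uptake from -2.67% to 11.5%. All genes tested gave -3.20% to 1.82%.

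The lists of inflammation had wider ranges around 0. Reactive astrocyte genes ran from -0.45 to 0.41 (-27.0% to 32.6%), interferon response genes from -0.39 to 0.28 (-23.8% to 21.6%) and MHC class I presentation from -0.48 to 0.49 (-28.2% to 40.6%). Cytokine receptors were lower in 5 of 6 pairs, from -0.37 to 0.19 (-22.6% to 14.3%), with a mean of -0.15. Pair 1, whose Rag2-/- library stood apart, was the highest pair of the reactive, interferon and cytokine receptor lists. Without it the reactive list ran from -0.45 to 0.0053 and its mean moved from -0.12 to -0.23, and the cytokine receptors were lower in all 5 remaining pairs, with a mean of -0.22 ± 0.14 (SD).

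The isolation response ran from -26.0% to 8.54%, cholesterol synthesis from -20.0% to 19.5%, secreted synapse regulators from -20.9% to 9.88%, glycolysis, glycogen and lactate from -13.7% to 5.86%, the circadian clock from -13.6% to 4.10% and transmitter receptors and calcium signalling from -5.31% to 19%. Notch, BMP and FGF regulators were lower in 5 of 6 pairs, from -11.8% to 0.329%. Gap junctions ran from -42.5% to 31.4%, over 3 genes that include the rarely counted Gjb2. These list differences are not adjusted for sex, and pair 6 of unlike sex gave the lowest value of several lists. Its 2 libraries also differed in other ways. The Rag2-/- library had 45.1% mitochondrial counts against 33.4% in its control, and 21819 genes detected against 23840. Its oligodendrocyte markers summed to 6000 CPM against 3367. The part of sex and of these differences in the low values was not tested. In the 5 pairs of like sex the lowest log2 difference was -0.12 rather than -0.80 for gap junctions, -0.028 rather than -0.32 for cholesterol synthesis, -0.053 rather than -0.21 for the circadian clock, -0.12 rather than -0.48 for MHC class I presentation and -0.38 rather than -0.45 for reactive astrocyte genes. Without pair 6 the mean of the gap junction list moved from -0.075 to 0.070.

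The lipoprotein list was the only one higher in 6 of 6 pairs, by 0.17 to 0.29 on the log2 scale (12.4% to 22.5%), with a mean of 0.22. It rested on Apoc1. Without that gene, a setting chosen after the data were seen, the mean was 0.0047 and the range -0.40 to 0.24. Scaled to total gene counts, the median of all genes moved by -0.096 and the mean of every list moved down with it, to -0.11 for astrocyte identity.

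**Figure D4:**
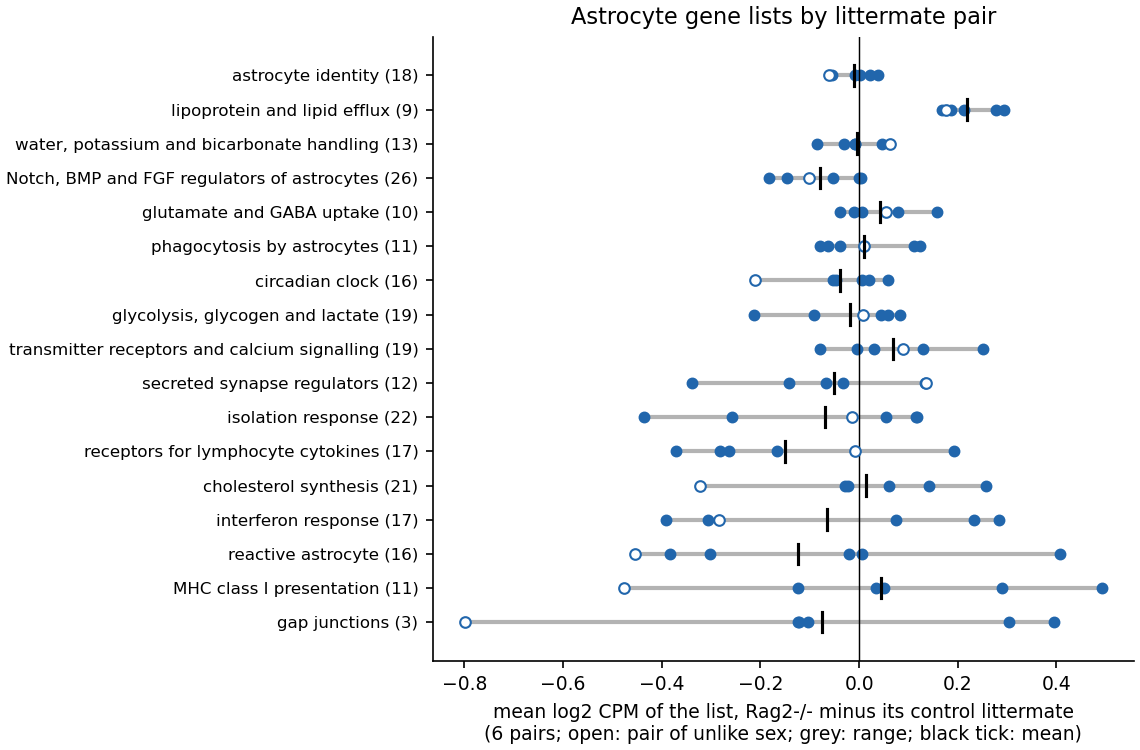
Difference in mean log2 CPM between the Rag2-/- library and its control littermate (horizontal axis) for 17 gene lists (vertical axis, with the number of genes tested), with 1 point per pair, an open point for pair 6 of unlike sex, a grey bar for the range and a black tick for the mean. The points of astrocyte identity lie between -0.06 and 0.04, those of reactive astrocyte genes between -0.45 and 0.41, and the lipoprotein list, which includes Apoc1, lies above 0 in all 6 pairs.

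Beyond the lists, the 5 genes with the smallest unadjusted p in each direction show what the strongest candidates looked like. The lower ones were Iftap and 4 others. Accs (chromosome 2, 93663672 to 93680325), a homologue of a plant ethylene synthesis enzyme, was at 11.4, 10.9, 10.4, 14.7, 9.77 and 10.5 CPM in controls and 3.62, 6.65, 3.42, 7.17, 6.42 and 8.89 CPM in Rag2-/- mice. Every Rag2-/- library was below every control, and the log2 fold change was -0.97 (95% interval -1.53 to -0.42). Papolg, a poly(A) polymerase, stood at 17.4 ± 1.84 CPM in controls and 11.5 ± 1.82 CPM in Rag2-/- mice (SD, n = 6 each), with no overlap and a log2 fold change of -0.61 (-0.97 to -0.24). Snx18, a sorting nexin, was at -0.48 (-0.76 to -0.21) and Psma1, a proteasome subunit, at -0.72 (-1.16 to -0.28), both with overlap.

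The higher ones were Rmdn2, Csgalnact2, Trp53i11, Casp8 and Cckbr. Rmdn2 (chromosome 17, 79919272 to 80000621), a microtubule regulator, was at 6.71, 3.55, 5.71, 6.38, 4.77 and 6.10 CPM in controls and 16.5, 9.40, 12.1, 6.95, 8.70 and 8.15 CPM in Rag2-/- mice. Each Rag2-/- library was above each control, by 0.98 on the log2 scale (0.47 to 1.49). Casp8, the initiator caspase of death receptors, did not overlap either, with 0.648 ± 0.323 CPM in controls and 2.04 ± 0.712 CPM in Rag2-/- mice (SD, n = 6 each) and a log2 fold change of 1.65 (0.64 to 2.67). Csgalnact2, of chondroitin sulfate synthesis, was at 1.21 (0.58 to 1.84) and 0.86 without the Rag2-/- library of pair 1. Cckbr, a cholecystokinin receptor, was at 1.93 (0.73 to 3.13) and did not overlap, and Trp53i11 was at 1.67 (0.72 to 2.62) and did. In controls Casp8 was counted at 0.240 to 0.993 CPM and Cckbr at 0.120 to 1.71 CPM. Both passed the filter on low counts through their Rag2-/- libraries, so their lack of overlap is partly set by that filter. For all 9 genes other than Iftap edgeR's quasi-likelihood test gave an adjusted p of 1.00, and since they were picked for small p their estimates are a description.

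**Figure D5:**
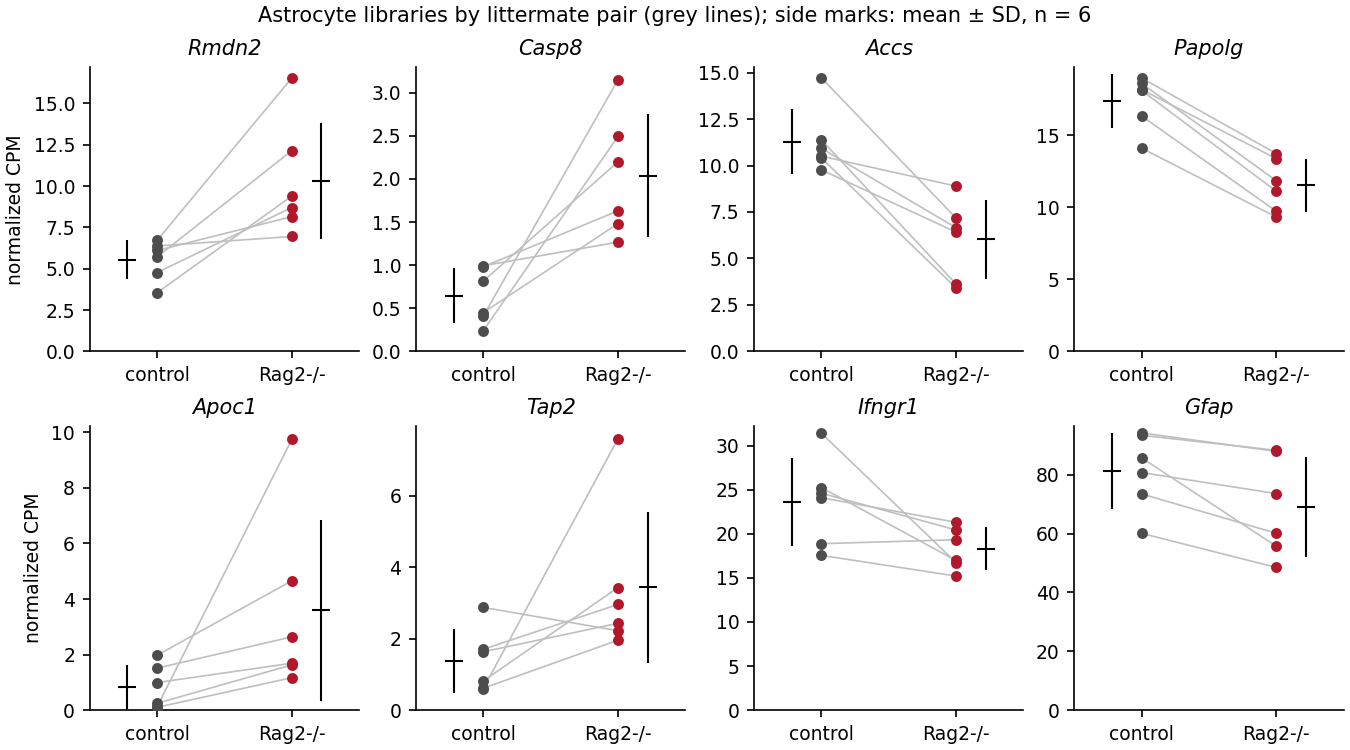
Normalized CPM (vertical axes, each from 0) in the control and Rag2-/- astrocyte libraries, joined by littermate pair in grey, with the mean ± SD (n = 6) beside each group, for 4 of the genes with the smallest p (Rmdn2, Casp8, Accs, Papolg), the 3 list members with an unadjusted p under 0.05 (Apoc1, Tap2, Ifngr1) and Gfap. The groups do not overlap in the upper row, and they overlap in the lower row, where the Rag2-/- library of pair 1 is the highest point for Apoc1 and Tap2.

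RNA of other cells was present in both groups. The summed level of 8 oligodendrocyte markers was 3367 to 4438 CPM in controls and 3143 to 6000 CPM in Rag2-/- libraries. The sum of 7 OPC markers was 33.9 to 238 CPM and 75.6 to 231 CPM, of 7 endothelial markers 9.54 to 38.9 CPM and 6.51 to 33.8 CPM, of 9 mural cell and fibroblast markers 124 to 162 CPM and 112 to 146 CPM, and of 4 ependymal markers 5.30 to 14.2 CPM and 5.19 to 10.6 CPM. The sum of 9 neuronal markers was 146 to 218 CPM in controls and 129 to 362 CPM in Rag2-/- libraries, with the highest value in the Rag2-/- library of pair 1. Of these markers only Snap25, of the synaptic vesicle fusion machinery, had an unadjusted p under 0.05, at 0.52 (95% interval 0.07 to 0.96). It held 2218 counts in that library, 678 to 1687 in the other Rag2-/- libraries and 639 to 1259 in controls. Its difference without that library is not given here. Of 9 lymphocyte markers 5 had 0 counts in all 12 libraries, Cd3d, Cd3e, Cd3g and Ms4a1 among them, and their sum was 0 to 1.05 CPM in controls and 0.113 to 2.16 CPM in Rag2-/- libraries. The part of these cells in the differences above was not tested, and in RNA from a cell population fewer cells and less RNA per cell cannot be told apart.

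The precision in astrocytes was close to that in the other well-replicated glia. Over 12345 genes tested in all 3 cell types, the median margin was 0.47 in astrocytes, 0.47 in OPCs and 0.42 in microglia, and 76.7%, 76.5% and 79.8% of the intervals lay inside 2-fold. A joint fit tested whether the genotype effect in astrocytes differed from the mean effect in OPCs and microglia. edgeR's quasi-likelihood test called 0 of 20146 genes, and 953 (4.73%) had an unadjusted p under 0.05. The median margin of that difference was 0.91 on the log2 scale, wider than the margin within astrocytes. This fit had no term for the mouse, although the 3 cell types came from the same mice. With a block for each mouse edgeR also called 0 genes. Then 778 genes had an unadjusted p under 0.05, and the median margin was 0.95.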

How the data were processed

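RNA was sequenced from 12 astrocyte libraries, each from 1 mouse. Per the labels and the study's methods, the authors made amplified libraries, ran those of each cell type on the same lane, aligned reads with STAR 2.7.8a to GRCm39 and deposited raw read counts per gene from HTSeq. The strand setting is not given in the sources used here, so reads of Iftap and Rag2 exons that overlap (208 of 3424 exonic bases of Rag2) could have gone to either gene. The 5 summary entries per file, which count what was not assigned to a gene, together made up 35.8% to 42.1% of each library and were left out. Of 55416 gene identifiers, 54749 were named with GENCODE M39, which also gave transcript starts. Sequence was read from GRCm39.

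Genes were kept by filterByExpr (minimum count 10, minimum total 15), scaled by TMM and fitted with edgeR 4.0.16 (R 4.3.3; limma 3.58.1 and DESeq2 1.42.0 for alternatives) on sex and genotype. Calls used an adjusted p of 0.05 (Benjamini-Hochberg over all genes tested). The 95% interval is the log2 fold change plus or minus the t quantile times the SE, with SE = |log2 fold change| / √F, or from the information matrix for 1279 genes with F under 0.01. Equivalence was tested with 2 one-sided tests. List levels are means of log2 CPM (prior count 2) and carry no p. Replicates are separate mice, and libraries of 1 group differed by a chi-square of at least 7.86 per gene. Counting intervals and the floor of 3 counts cover counting error only.

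Named were Iftap, Rag2, genes called by genotype or sex, the 5 genes with the smallest p in each direction, the extremes of each list by p and by interval width, the sex lists and cell type markers. A few genes that this rule names are not reported here. The members and the lists were chosen with earlier results of these data known. Pair numbers come from the labels and mark littermates. Deviations from the group means correlated at 0.06 to 0.20 within the 6 pairs (mean 0.14) and at -0.026 on average between pairs. The scripts were tested on simulated data. Alternatives were other scalings, filters and tools, a replicate block, subsets of libraries and each library left out.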

Additional observations from a re-analysis of the deposited data

Results flagged for a closer look

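In 181 groups of 6 libraries, 1 per named gene or list and genotype, the lowest or highest library was set against the other 5 by Dixon's ratio, on the log2(CPM + 0.2) scale for genes. It passed the 95% limit in 9 groups (4.97%), and chance gives about 5%. In Rag2-/- libraries the highest value was at 4.19 for Csgalnact2 (pair 1, others 2.45 to 3.06) and 11.5 for Clu (pair 2, others 11 to 11.2). The lowest was at 10.2 for Glud1 (pair 4, others 10.3), 5.35 for Itgb5 (pair 4, others 5.78 to 5.92), 1.66 for Pgam1 (pair 3, others 2.32 to 2.71) and 3.13 for Cry1 (pair 3, others 3.76 to 4.13). In controls the highest was at 3.90 for Accs (pair 4, others 3.32 to 3.53) and 4.34 for Gulp1 (pair 6, others 3.32 to 3.67), and the lowest at 9.13 for Gja1 (pair 3, others 9.40 to 9.51). Differences between cell types in the genotype effect gave 0 calls.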

How the results depend on the processing

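Iftap was called in all 25 alternatives, with a log2 fold change of -9.61 to -7.57 (-9.57 to -9.35 with each library left out), and it was the only call in 24 of them, the replicate block of littermate pairs included, which called 1 gene and changed no other call. Without a filter on low counts 30 genes passed (19 higher, 11 lower). Of these 11 are among the 14725 tested otherwise, and none is a list member. They include Ext2, the mitochondrial mt-Rnr1, mt-Rnr2 and mt-Nd2, and the haemoglobin genes Hbb-bs, Hba-a1 and Hbb-bt. The share of intervals inside 2-fold then was 30.8% (31.4% in DESeq2 on all genes), the share inside 1.5-fold 18% (17.9%) and the median margin 1.80 (1.78), since genes of very low counts entered. In male libraries alone 18.3% lay inside 1.5-fold. Sex called 118 genes without a filter, 18 and 16 in DESeq2 on all and on filtered genes, 19 with a replicate block (where sex rests on pair 6), 10 with heterozygous controls only and 12 without pair 6. The difference between cell types called 93 genes without a filter, and 0 to 1 with each pair left out, the 1 being Ckap2l without pair 4 (adjusted p 0.0434 in edgeR). Scaled to total gene counts, list means were -0.11 for identity, -0.057 for uptake, -0.10 for water and potassium, 0.12 for lipoproteins, -0.088 for phagocytosis, -0.18 for Notch, BMP and FGF and -0.14 for the clock. As medians over members they were -0.078 for water and potassium, -0.023 for lipoproteins and 0.10 for glycolysis. Without Apoc1 the lipoprotein mean was 0.0047. Lists of low level were read least closely, since a gene under 10 CPM was rarely placed within 1.5-fold. How much of this is depth and how much the spread between mice was not tested.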

Other observations

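Accs and Trp53i11, among the 10 genes with the smallest p, lie on chromosome 2 within 10 Mb of Rag2, at 7.79 and 8.45 Mb from it. This was noticed after the values were seen. Of 79 genes tested in that window 4 had an unadjusted p under 0.05 (5.06%), and the other 2 were Iftap and Ext2, an enzyme of heparan sulfate synthesis. On the rest of chromosome 2 it was 26 of 1048 (2.48%). In OPCs it was 5 of 85 in the window (5.88%) and 44 of 1145 on the rest (3.84%). In microglia it was 2 of 76 (2.63%) and 27 of 1066 (2.53%). Each window count includes Iftap itself. In astrocytes the groups did not overlap for 2 of the 79 (2.53%, Iftap and Accs) and for 0 of the 1048. Ext2 stood at 53.1 ± 49.2 CPM in control and 25 ± 6.09 CPM in Rag2-/- astrocytes (SD, n = 6 each). In microglia of the same mice it was at 39.8 ± 24.4 and 20.7 ± 3.87 CPM, with overlap in both cell types. Its log2 fold change was -1.04 (95% interval -1.75 to -0.33) in astrocytes and -0.94 (-1.45 to -0.43) in microglia. With the filter on low counts edgeR called Ext2 in neither, and without it Ext2 was called in astrocytes. Accs differed by 0.01 (95% interval -0.52 to 0.55) in OPCs and by 0.0019 (-0.51 to 0.52) in microglia, and Trp53i11 by 0.16 (-0.41 to 0.72) and -0.27 (-0.66 to 0.12). In both cell types the intervals did not reach the astrocyte estimates of -0.97 for Accs and 1.67 for Trp53i11. Trp53i11 averaged 1.38 CPM in control and 4.44 CPM in Rag2-/- astrocytes. Its control and Rag2-/- means were 21.5 and 23.9 CPM in OPCs, and 29.4 and 25.2 CPM in microglia. The part of RNA from such cells in its astrocyte value was not tested. In the joint fit without a mouse term, the astrocyte effect of Trp53i11 minus that of the other cells was 1.73 (0.90 to 2.56). Its adjusted p was 0.475 in edgeR. That fit called neither gene. Without a filter on low counts Trp53i11 was among the 93 genes called. So were Aldh1l1, Gja1 and Fgfr3 of the astrocyte identity list, and the haemoglobin genes Hba-a1, Hbb-bs and Hbb-bt.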
